A study of Mus musculus with 454 samples.

Results

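Endocannabinoid signalling was followed in 4 brain regions through 6 genes, chosen by name: the cannabinoid receptor gene Cnr1 and the enzyme genes Dagla, Daglb, Mgll, Napepld and Faah. Each symbol matched 1 Ensembl identifier of the deposited count table, which lists 43346 genes, and all 6 were among the 18627 genes tested across the whole series. The series holds 454 mouse libraries of polyadenylated RNA from regions labelled PFC, AMY, VTA and Nac, abbreviations that usually stand for prefrontal cortex, amygdala, ventral tegmental area and nucleus accumbens. The series title speaks of the medial amygdala. Mice were socially isolated (SI) or group-housed (G), females or males, and were given cocaine at 7.5 mg/kg or saline on a chronic or an acute schedule. Crossing these labels gave 16 groups of 5 to 8 libraries in each region. No genotype, strain, age, length of isolation or number of injections is given in the labels, and nothing in them says that libraries of a group came from separate mice, so p-values measure the spread between these libraries.

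Endocannabinoids are lipid messengers that are made in the receiving neuron on demand and act backwards on the sending nerve terminal, where the receptor CB1, the product of Cnr1, lowers transmitter release. The messenger 2-arachidonoylglycerol (2-AG) is made by the diacylglycerol lipases Dagla and Daglb and broken down mainly by monoacylglycerol lipase, the product of Mgll. The second messenger, anandamide, is one of the N-acylethanolamines, which are released from membrane phospholipids by the phospholipase D of Napepld, among other routes, and cleaved by fatty acid amide hydrolase, the product of Faah. CB1 is known to be dense on terminals of cholecystokinin interneurons in cortex and amygdala, and also sits on glutamatergic and striatal terminals, so that part of the receptor of a region comes from RNA in cells of another region.

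The total count of a library lay between 11.21 and 52.34 M (mega-counts), in the median 21.71 M, and 1 count per mega-count (CPM) thus stood for about 21.7 reads in a typical library, and every one of the 6 genes was well covered: the lowest read count of any member in any library was 48, for Napepld in Nac. By marker lists, each region was richest in its own cells: striatal markers in Nac, dopamine neuron markers in VTA, glutamatergic markers in PFC and medial amygdala markers in AMY. The last list holds both medial amygdala and hypothalamic markers and is called medial amygdala for short throughout. In all, 17 libraries stood apart from their region (2 in PFC, 6 in AMY, 4 in VTA and 5 in Nac). The main comparisons within and between regions were also computed without them. Of the cocaine differences by combination of sex and housing, only those in Nac were. The comparisons added after seeing the data and the correlations were not. The numbers in the library titles fall into 4 runs, named here by their first number: 500, 1000, 1100 and 1200. Chronic cocaine libraries lie in series 1000 and 1200, chronic saline libraries in series 500 and 1200, and all acute libraries in series 1000 and 1100. Chronic and acute saline libraries thus share no number series, and both schedules meet in 1 series only for cocaine, in series 1000. The labels do not say what a series is.

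All 6 genes had their highest level in PFC. Among the other regions, by medians, Mgll and Dagla shared the order Nac, AMY and VTA, Faah and Napepld the order AMY, VTA and Nac, while Cnr1 ran AMY, Nac and VTA and Daglb VTA, Nac and AMY. In the fit over all 454 libraries, the 6 genes differed in every pair of regions but 1: Napepld in AMY and VTA. This is set against a background in which most genes differ: 84.4% of all genes passed between AMY and Nac, 81.5% between AMY and PFC, 87.3% between AMY and VTA, 86.0% between Nac and PFC, 90.4% between Nac and VTA, 89.3% between PFC and VTA, and 98.9% in the test over all 4 regions. With such a background the calls of the members are no result about them, and the size of their differences is given instead. The median absolute log2 difference over all genes was between 0.23 (AMY and PFC) and 0.44 (Nac and VTA). Member differences ranged in size from 0.02 (Napepld, AMY and VTA) to 2.40 (Mgll, PFC and VTA). Several lay under the median of their pair, such as Daglb at -0.08 between AMY and Nac, where that median was 0.27, while others lay above it.

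**Figure D1:**
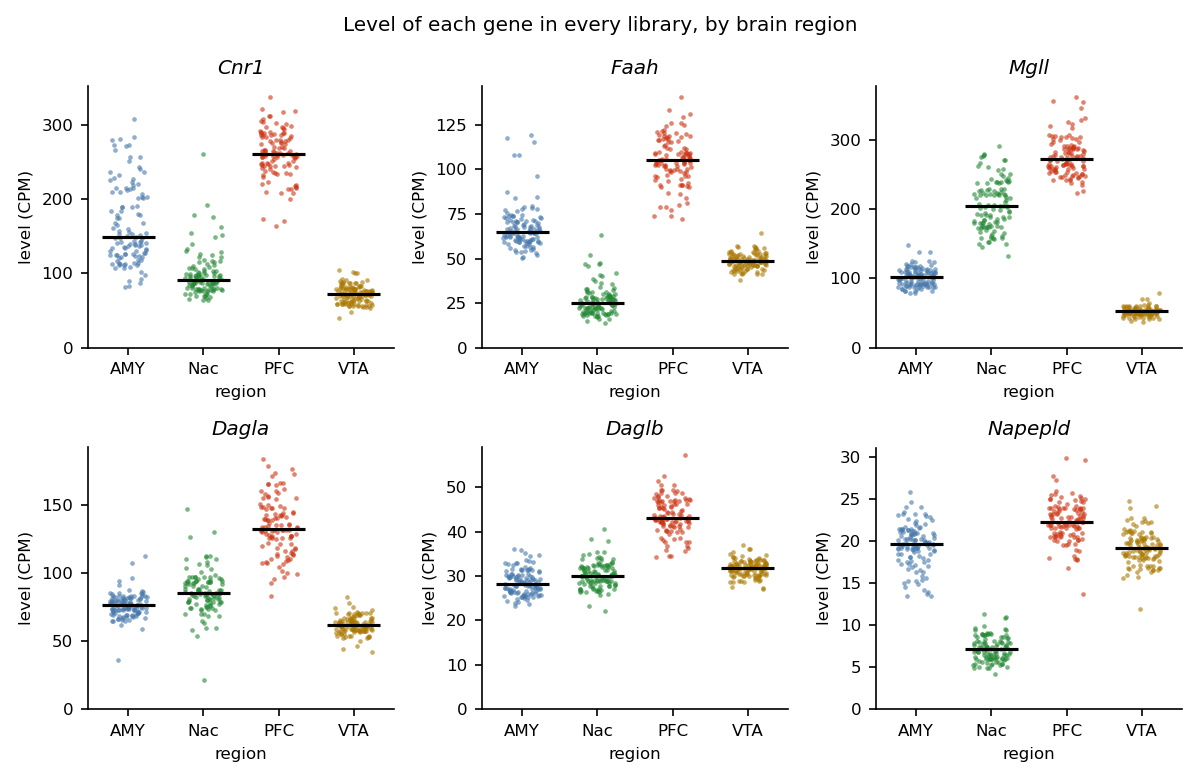
Level of each gene in counts per mega-count (CPM, vertical axis from 0) in every library of 4 brain regions (horizontal axis), 1 point a library, with the median as a bar. The PFC points sit highest for all 6 genes, and the Nac points of Faah and Napepld lie below those of most other libraries.

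Cnr1 lies on mouse chromosome 4 (4:33924593-33948831, plus strand, GRCm38), a protein-coding gene with 6.44 kb of exon sequence. In PFC it had a lowest, median and highest level of 164, 261 and 337 CPM over 112 libraries. In AMY the values were 81.5, 149 and 307 CPM over 115 libraries, in Nac 64.5, 91.5 and 260.4 CPM over 112, and in VTA 40.4, 71.9 and 104 CPM over 115. PFC and VTA did not overlap, whereas the AMY range reached from the upper VTA values far into the PFC range. The mean was 261 ± 31.9 CPM in PFC (SD, n = 112) and 166 ± 53.3 CPM in AMY (SD, n = 115), a coefficient of variation of 12.2% in PFC against 32.1% in AMY. Cnr1 was 1.86 higher in PFC than in VTA on the log2 scale (SE 0.05, edgeR quasi-likelihood test with Benjamini-Hochberg adjustment, adjusted p = 9.77e-144), and its smallest difference was that of Nac over VTA, 0.44 (SE 0.04, adjusted p = 1.67e-20, same edgeR test).

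Of the 2-AG lipases, Dagla (chromosome 19, 19:10245265-10304877, minus strand, GRCm38) was the more abundant. It had a lowest, median and highest level of 83.1, 133 and 184 CPM in PFC, 21.4, 85.5 and 147 CPM in Nac, 36.1, 76.4 and 113 CPM in AMY and 41.7, 61.6 and 82.3 CPM in VTA. Every PFC library was above every VTA library, while the other pairs of regions overlapped, with a log2 difference of 1.11 for PFC over VTA (SE 0.03, edgeR adjusted p = 3.83e-146). Daglb (chromosome 5, 5:143464584-143505942, plus strand, GRCm38) had 34.4, 43.2 and 57.3 CPM in PFC, 27.1, 31.9 and 37.0 CPM in VTA, 22.2, 30.1 and 40.6 CPM in Nac and 23.4, 28.3 and 36.1 CPM in AMY. It was the flattest of the 6 genes, with a largest log2 difference of -0.61 for AMY over PFC (SE 0.02, edgeR adjusted p = 1.88e-131). In the GENCODE M21 annotation 2309 of its exon bases overlap exons of Rac1 on the opposite strand. The strand setting of the authors' counting is not given in the sources used here, so Daglb counts are uncertain to that extent.

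Mgll (chromosome 6, 6:88724412-88828360, plus strand, GRCm38) separated the regions most. It had a lowest, median and highest level of 223, 273 and 362 CPM in PFC, 133, 204 and 291 CPM in Nac, 79.3, 102 and 148 CPM in AMY and 37.1, 52.2 and 79.4 CPM in VTA. Every PFC library was above every AMY and VTA library, and the VTA and AMY ranges met only at 79.3 to 79.4 CPM. PFC exceeded VTA by a log2 difference of 2.40 (SE 0.03, edgeR adjusted p = 1.33e-265) and Nac exceeded VTA by 1.98 (SE 0.03, edgeR adjusted p = 4.81e-237). An exon of the antisense gene model Gm26588 covers 167 bases of Mgll exons.

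The anandamide genes shared a low in Nac. Napepld (chromosome 5, 5:21662901-21701396, minus strand, GRCm38) had a lowest, median and highest level of 13.7, 22.4 and 29.9 CPM in PFC, 13.5, 19.7 and 25.9 CPM in AMY, 12, 19.2 and 24.8 CPM in VTA and 4.19, 7.12 and 11.3 CPM in Nac. Every Nac library was below every library of the other 3 regions. The Nac difference was -1.64 from PFC (SE 0.03, edgeR adjusted p = 7.33e-208), and the neighbours AMY and VTA did not pass the test (0.02, SE 0.02, edgeR adjusted p = 0.385). Faah (chromosome 4, 4:115967145-116017926, minus strand, GRCm38) had 72.4, 105 and 141 CPM in PFC, 50.0, 65.0 and 119.6 CPM in AMY, 37.8, 48.4 and 64.2 CPM in VTA and 13.9, 25.3 and 63.1 CPM in Nac. PFC was clear of VTA and Nac, whereas single AMY libraries reached into the PFC range. Nac was lower than PFC (log2 difference -2.00, SE 0.03, edgeR adjusted p = 2.48e-191).

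Per kilobase of exon sequence, the genes could be ranked against each other within a region, as a description of median levels. In PFC the order was Mgll 53.7, Cnr1 40.5, Dagla 23.1, Faah 13.4, Napepld 5.65 and Daglb 4.51 CPM per kb. In VTA Cnr1, Dagla and Mgll lay close together at 11.2, 10.7 and 10.3 CPM per kb, and Daglb was again lowest at 3.34. In Nac the levels were 40.3 for Mgll, 14.9 for Dagla, 14.2 for Cnr1, 3.23 for Faah, 3.14 for Daglb and 1.80 for Napepld CPM per kb. In AMY Cnr1 came first at 23.1, ahead of Mgll at 20.1, Dagla at 13.3, Faah at 8.29, Napepld at 4.98 and Daglb at 2.96 CPM per kb. As a balance of the 2-AG degrading to the synthesising gene, the ratio of Mgll to Dagla per kilobase within a library was 2.75 ± 0.956 in Nac (median and SD, n = 112), 2.31 ± 0.427 in PFC (n = 112), 1.51 ± 0.278 in AMY (n = 115) and 0.947 ± 0.150 in VTA (n = 115). The ratio of Faah to Napepld per kilobase had a median of 2.32 in PFC, 1.77 in Nac, 1.72 in AMY and 1.27 in VTA.

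Social isolation is the condition named in the series title, and no member passed the test in any housing comparison of any region. These were isolation against group housing over all mice, in saline-treated males and in saline-treated females, in each of 4 regions, and in all 12 the share of all genes called was 0%. At an unadjusted p under 0.05 the count of members was also 0 in all 12. Over all mice, the largest member difference was that of Cnr1 in AMY, with a lowest, median and highest level of 87.0, 167 and 279.5 CPM in isolated mice, against 81.5, 140.0 and 307 CPM in group-housed mice. The ranges overlapped almost entirely, and the difference was 0.15 (SE 0.08, edgeR adjusted p = 0.995). Across the other member results over all mice, the log2 differences lay between -0.04 and 0.06.

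**Figure D2:**
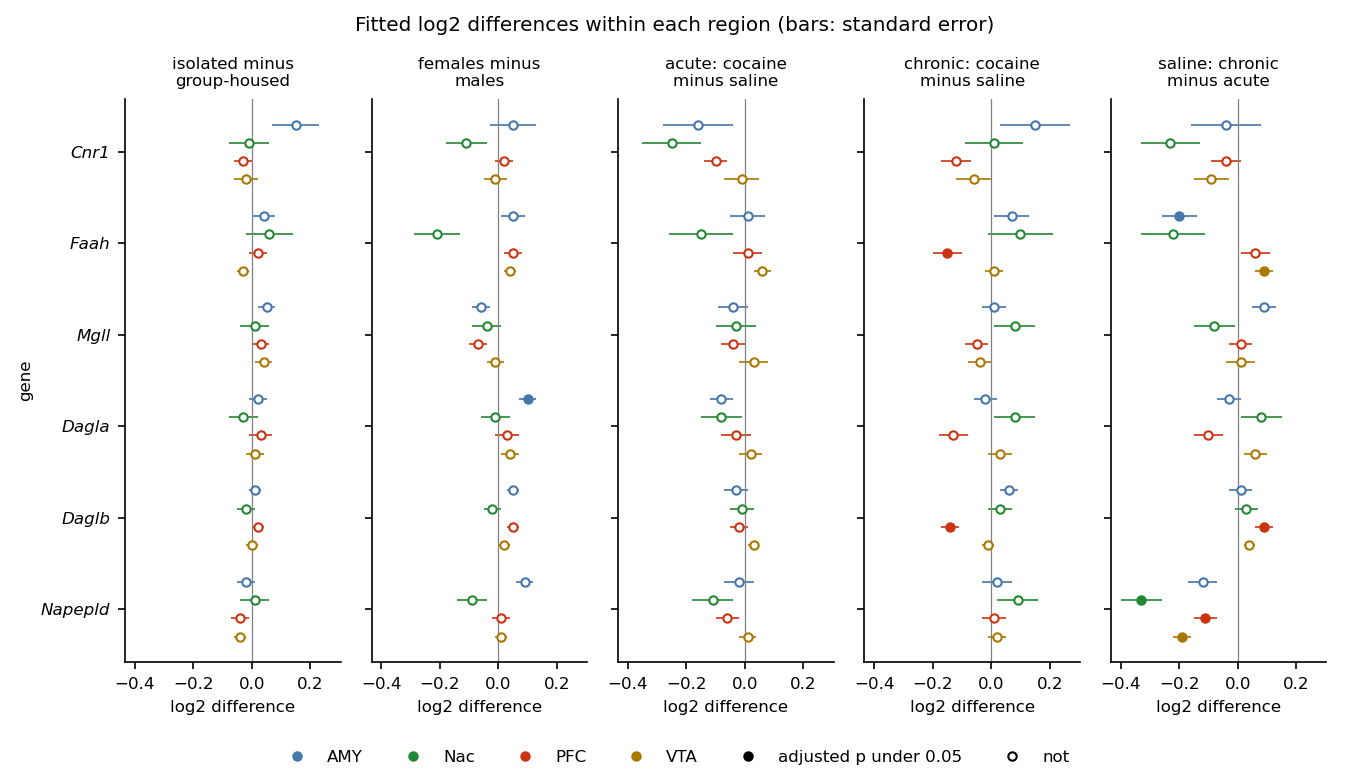
Fitted log2 differences (horizontal axis) of the 6 genes (vertical axis) in 4 regions (colours) for 5 comparisons, each titled with the 2 groups in the order of subtraction; bars are standard errors and filled points passed an adjusted p of 0.05. Filled points are few: Dagla in AMY for sex, Faah and Daglb in PFC for chronic cocaine, and Faah, Daglb and Napepld for the schedule.

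Sex differences were small. Dagla rose in females in AMY, with a lowest, median and highest level of 58.8, 78.1 and 113 CPM in 59 female libraries, against 36.1, 73.8 and 85.1 CPM in 56 male libraries. Of the female libraries, 43 of 59 lay above the male median, and the ranges overlapped. The log2 difference was 0.10 (SE 0.03, edgeR adjusted p = 0.0447). Dagla was the 1 member of 6 that passed in AMY, where 2.19% of all genes passed; 0 passed in Nac (background 0.272%), PFC (1.12%) and VTA (0.332%), with 1, 2 and 0 members at an unadjusted p under 0.05. The call was lost without the libraries that stood apart (adjusted p = 0.0683), under limma voom (0.0543) and when single isolated males of the acute cocaine group were left out. In the same comparison 4 of 7 choroid plexus markers, 2 of 6 astrocyte markers and 1 of 6 medial amygdala markers were lower in females: the summed choroid plexus markers ran from 12.7 to 4032 CPM in females and from 27.5 to 5331 CPM in males, and none of the markers was at 0. Their part in the Dagla difference was not tested. In Nac, Faah had a lowest, median and highest level of 13.9, 24.8 and 47.2 CPM in females, against 16.2, 26.0 and 63.1 CPM in males, a difference of -0.21 that did not pass (SE 0.08, edgeR adjusted p = 0.304).

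Acute cocaine gave 0 of 6 called members in each region. The share of all genes called was 0.0647% in PFC, 0.0467% in VTA and 0% in AMY and Nac. At an unadjusted p under 0.05 lay 894 of 17266 genes in Nac and 1802 of 17003 in PFC. The members with such a p numbered 0 in AMY and VTA and 1 each in Nac and PFC. Both of those were Cnr1. In Nac it had a lowest, median and highest level of 65.5, 88.5 and 175 CPM with acute cocaine, against 64.5, 94.9 and 260.4 CPM with acute saline. The difference was -0.25 (SE 0.10, unadjusted p = 0.0105, edgeR adjusted p = 0.799), and by combination it was -0.38 in isolated males, -0.33 in group-housed males, -0.14 in isolated females and -0.16 in group-housed females. The medians of males did not follow these fitted values: in group-housed males the median was 97.4 CPM with cocaine, against 78.8 CPM with saline, all 7 cocaine libraries lay above the saline median, and the saline group held the library of 260.4 CPM. That library was also the highest of Nac in Faah and Daglb. Its mean log2 level of glutamatergic markers was 5.90, against a Nac median of 1.36, and that of striatal markers 7.87, against 8.76. It was not among the libraries that stood apart, and its part in the difference was not tested. In isolated males the median was 92.9 CPM in both groups. In PFC Cnr1 had 169.9, 258 and 308 CPM with acute cocaine, against 209.6, 279.6 and 337 CPM with acute saline, a difference of -0.10 (SE 0.04, unadjusted p = 0.0298, edgeR adjusted p = 0.417). The groups overlapped in both regions.

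Whether housing changed the response to acute cocaine was tested as the difference of the isolated and the group-housed effect. No member passed, with 0% of all genes called in AMY, Nac and PFC and 1.28% in VTA, and by unadjusted p alone (under 0.05) 0 members in PFC and 2 in each of the other 3 regions. The largest was Dagla in Nac, at -0.36 (SE 0.14, edgeR adjusted p = 0.898): the cocaine difference was -0.32 in isolated males and -0.20 in isolated females, against 0.12 in group-housed males and 0.08 in group-housed females. For chronic cocaine the same gene and region gave a difference of the other sign, 0.33 (SE 0.14, edgeR adjusted p = 0.282), with 0.16 in isolated males and 0.33 in isolated females, against -0.07 in group-housed males and -0.11 in group-housed females. The isolated female saline group of the chronic schedule holds the lowest Nac library of Dagla, at 21.4 CPM, next to 76.8 CPM for the second lowest, and this library is 1 of those that stood apart. Without those libraries the chronic difference was 0.16 in isolated females, 0.05 in isolated males, -0.08 in group-housed females and -0.07 in group-housed males, and the difference by housing was 0.18 (SE 0.11, edgeR adjusted p = 1). The chronic effect by housing had 0 called members and 0% of genes called in each of the 4 regions. By unadjusted p alone it had 1 member in Nac, where 2332 of 17266 genes had a p under 0.05, and 0 elsewhere. In the test over the 4 combinations of sex and housing, 0 members passed for acute cocaine (background 0.362% in VTA and 0% in the other regions; 1 member each in VTA and Nac at an unadjusted p under 0.05) and 0 for chronic cocaine (background 0.145% in Nac and 0% in the other regions; 0 members at an unadjusted p under 0.05 in each). For acute cocaine, 2476 of 17144 genes in VTA and 726 of 17266 in Nac had such an unadjusted p.

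Chronic cocaine was set against chronic saline. In PFC, 2 of 6 members fell, Faah and Daglb, where 7.12% of all genes were called. An unadjusted p under 0.05 was found there for 4 members and for 3997 of 17003 genes. In AMY (0.0518% of all genes called), Nac (0.151%) and VTA (0.0817%), 0 members were called and 0 had an unadjusted p under 0.05. Faah had a lowest, median and highest level of 72.4, 99.4 and 126 CPM in 28 chronic cocaine libraries of PFC, against 73.9, 108 and 141 CPM in 26 chronic saline libraries. Of the cocaine libraries 20 of 28 lay below the saline median, the ranges overlapped, and the difference was -0.15 (SE 0.05, edgeR adjusted p = 0.037). Daglb had 34.4, 42.3 and 48.7 CPM with chronic cocaine, against 34.6, 46.8 and 57.3 CPM with chronic saline, with 26 of 28 cocaine libraries below the saline median. Its difference was -0.14 (SE 0.03, edgeR adjusted p = 0.00514). Cnr1 (249 against 267 CPM in median, log2 difference -0.12, SE 0.05) and Dagla (118 against 133 CPM, -0.13, SE 0.05) did not pass, with edgeR adjusted p = 0.08 and 0.105, and Mgll (-0.05) and Napepld (0.01) did not either. No member passed the test of the difference between the chronic and the acute effect in any region (0% of all genes called in AMY, Nac, PFC and VTA; 0, 0, 2 and 0 members at an unadjusted p under 0.05). In PFC 927 of 17003 genes had such an unadjusted p.

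The fitted differences of Faah and Daglb were largest in isolated males. Faah had a lowest, median and highest level of 72.4, 86.1 and 119 CPM in 7 isolated males with chronic cocaine, against 96.8, 114 and 141 CPM in 7 with chronic saline (log2 difference -0.32, SE 0.09, edgeR adjusted p = 0.022). Daglb had 34.4, 42.3 and 48.7 CPM, against 42.6, 48.0 and 57.3 CPM (-0.23, SE 0.06, edgeR adjusted p = 0.0184). In both genes 6 of 7 cocaine libraries lay below the saline median. Dagla was also low, with 96.9, 110.5 and 135 CPM, against 119, 143 and 165 CPM, and all 7 cocaine libraries were under the saline median, but it did not pass (-0.30, SE 0.11, edgeR adjusted p = 0.062), and neither did Cnr1 (-0.25, SE 0.09, edgeR adjusted p = 0.0696). Thus 2 of 6 members and 6.91% of all genes were called in isolated males, while 0 members and 0% of genes were called in isolated females, group-housed females and group-housed males, where the Faah differences were -0.07, -0.11 and -0.09 and the Daglb differences -0.12, -0.11 and -0.11. No member passed the test of a difference between the 4 combinations, so isolated males are not shown to differ from the others.

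Striatal markers moved with these calls. Of 7 striatal markers, such as the dopamine receptor genes Drd1 and Drd2, 6 were higher in PFC with chronic cocaine and 0 were lower, and none was at 0. Their summed level ran from 141 to 1221.2 CPM with chronic cocaine and from 124 to 593 CPM with chronic saline. In isolated males the lowest, median and highest sums were 154, 351 and 1221.2 CPM with cocaine, against 124, 153 and 213 CPM with saline. Without the 15 of 112 PFC libraries whose sum was above 2 times the regional median, 8 of them chronic cocaine and 1 chronic saline, neither gene passed: the difference was -0.06 for Faah (edgeR adjusted p = 0.574) and -0.11 for Daglb (edgeR adjusted p = 0.0892). Within isolated males, 4 of 7 cocaine libraries and 0 of 7 saline libraries were left out by this, and the differences were -0.07 for Faah (edgeR adjusted p = 0.974) and -0.09 for Daglb (edgeR adjusted p = 0.888). This alternative was chosen after seeing the data. Markers of other lists moved too: 2 of 4 measured dopamine neuron, 2 of 6 choroid plexus, 1 of 6 astrocyte and 1 of 6 cholecystokinin interneuron markers were higher with chronic cocaine and 1 of 4 medial amygdala markers was lower. No oligodendrocyte marker passed, but their median log2 difference was 0.34 and their sums ran from 1358 to 9481 CPM with chronic cocaine and from 1269 to 6245 CPM with chronic saline. The part of these lists in the differences was not tested.

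**Figure D3:**
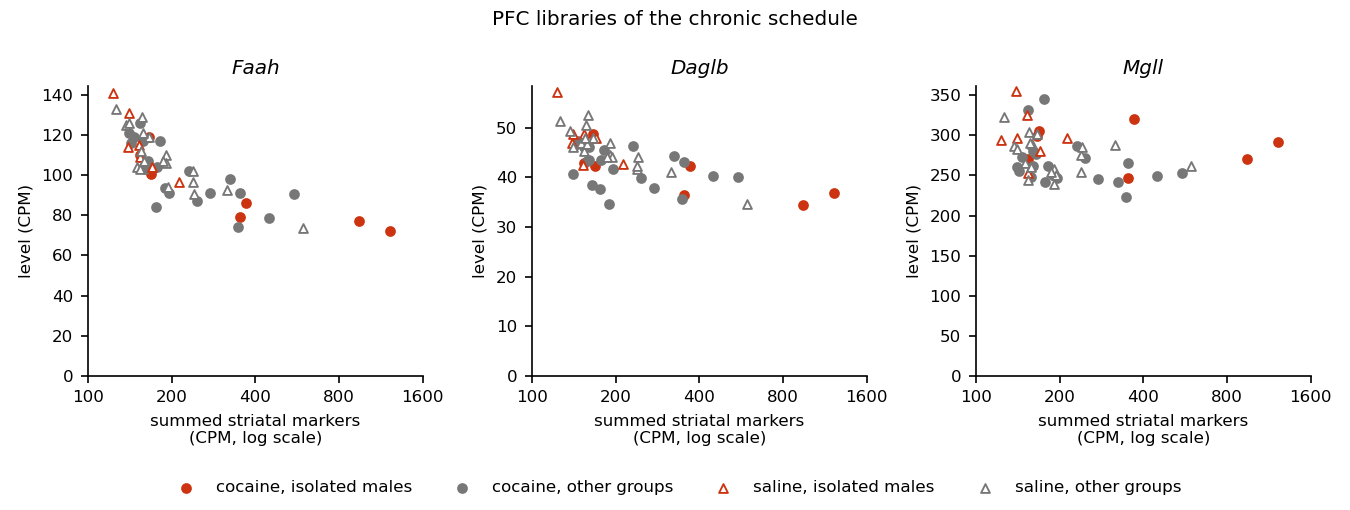
Level of Faah, Daglb and Mgll (CPM, vertical axis from 0) in the PFC libraries of the chronic schedule against their summed striatal markers (CPM, log scale); circles filled in colour are cocaine and open triangles saline, with isolated males in red. The points furthest to the right, with sums of up to 1221.2 CPM, are cocaine libraries of isolated males, and they are among the lowest in Faah and Daglb.

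The number series bore on the same comparison. In series 1200, the one series with both treatments, Faah had a lowest, median and highest level of 74.0, 101 and 119 CPM in 8 chronic cocaine libraries, against 73.9, 103 and 115 CPM in 16 chronic saline libraries. Daglb had 35.7, 44.0 and 48.7 CPM with cocaine in this series, against 34.6, 44.1 and 48.7 CPM with saline. Within series 1200 the groups overlapped throughout, and the log2 difference was -0.03 for Faah and -0.05 for Daglb. The cocaine libraries of this series were 3 of group-housed females, 1 of an isolated female, 2 of group-housed males and 2 of isolated males. Each combination had equal weight in the fit, so these values rest on few libraries. Outside this series the groups stood further apart: 20 cocaine libraries of series 1000 had 72.4, 96.9 and 126 CPM of Faah and 34.4, 42.0 and 46.3 CPM of Daglb, against 107, 125 and 141 CPM of Faah and 46.1, 49.0 and 57.3 CPM of Daglb in 10 saline libraries of series 500. With the series as a term in the model, the differences were 0.00 for Faah and -0.03 for Daglb (edgeR adjusted p = 1 for both). These estimates also rest on series 1200, where both treatments meet, so they are not independent of the values within that series.

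**Figure D4:**
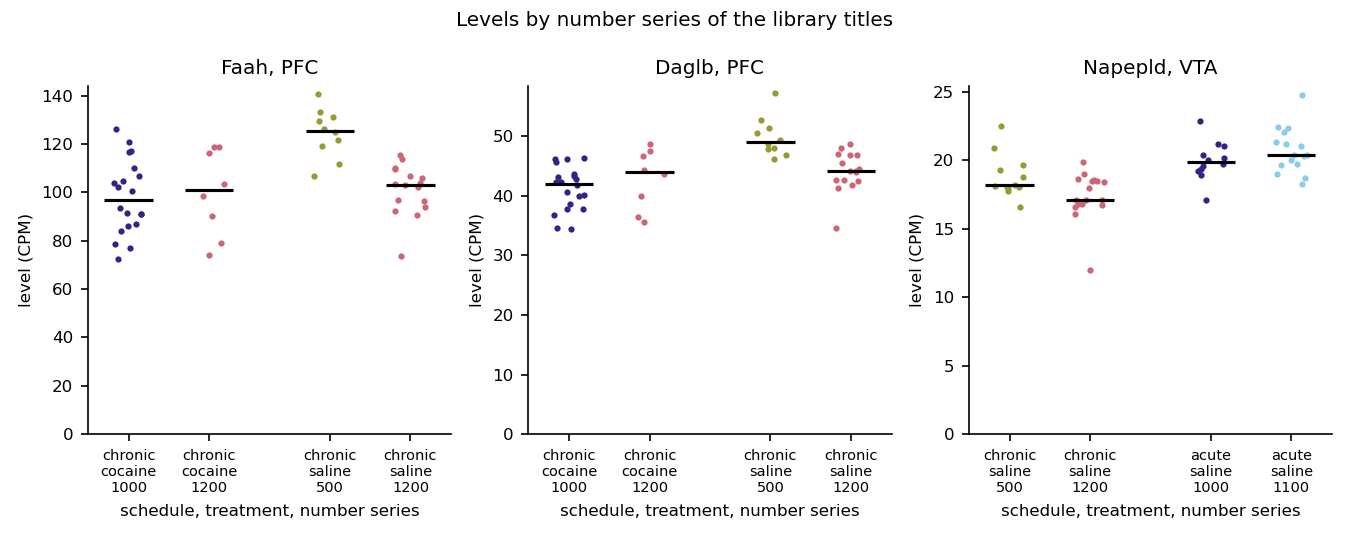
Level (CPM, vertical axis from 0) of Faah and Daglb in PFC with chronic cocaine and chronic saline, and of Napepld in VTA with chronic and acute saline, split by the number series of the library titles (colours); points are libraries and bars medians. In PFC the saline libraries of series 500 have the highest medians, 125 CPM for Faah against 96.9 to 103 CPM in the other sets.

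The promoter windows of the pair called together in PFC and of Napepld are shown because these are the members called for chronic cocaine or for the schedule before the number series was taken into account. Each runs from 250 bases before to 50 bases after a RefSeq gene start (assembly GRCm38.p6), is written 5′ to 3′ on the strand of the gene, and has CG dinucleotides, the sites of DNA methylation, in capitals. The windows are chr4:116017875-116018174 on the minus strand for Faah, chr5:143464243-143464542 on the plus strand for Daglb and chr5:21701573-21701872 on the minus strand for Napepld.
Faah: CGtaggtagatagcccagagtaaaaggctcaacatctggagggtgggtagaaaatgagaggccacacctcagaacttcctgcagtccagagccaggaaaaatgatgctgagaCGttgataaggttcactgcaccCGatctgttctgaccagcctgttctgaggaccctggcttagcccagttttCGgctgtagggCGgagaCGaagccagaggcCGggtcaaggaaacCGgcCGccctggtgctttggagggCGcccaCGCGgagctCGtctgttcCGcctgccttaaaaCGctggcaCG
Daglb: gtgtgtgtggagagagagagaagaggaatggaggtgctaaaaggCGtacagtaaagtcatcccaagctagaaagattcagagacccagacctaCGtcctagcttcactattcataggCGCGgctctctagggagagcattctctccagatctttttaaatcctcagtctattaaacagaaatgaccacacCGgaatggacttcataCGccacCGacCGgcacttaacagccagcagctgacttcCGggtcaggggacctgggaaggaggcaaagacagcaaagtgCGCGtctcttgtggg
Napepld: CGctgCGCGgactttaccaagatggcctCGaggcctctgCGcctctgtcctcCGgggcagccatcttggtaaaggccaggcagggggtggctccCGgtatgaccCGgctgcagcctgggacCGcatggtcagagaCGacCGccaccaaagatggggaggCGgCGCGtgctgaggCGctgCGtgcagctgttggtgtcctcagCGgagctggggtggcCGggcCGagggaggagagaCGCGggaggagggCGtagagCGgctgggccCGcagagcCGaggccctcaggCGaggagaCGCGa
These 3 windows hold 16, 11 and 28 CG dinucleotides and have a GC content of 57.7%, 51.0% and 70.3% in the order shown, against a median of 52.7% over 32851 windows of the same length. The half-site of the cAMP response element, TGACG, was searched on both strands, as was the AP-1 site TGANTCA, which shares at most the letters TGAC with the first motif. Neither was in any of the 3 windows. Of all windows 20.8% hold the first motif and 7.8% the second. Of the 8 windows found for the members (3 for Cnr1, 2 for Mgll and 1 each for Faah, Daglb and Napepld), 1 of Mgll holds the first.

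The schedule comparison set chronic saline against acute saline. Among the comparisons within a region it called the most genes, 43.6% in VTA, 23.3% in PFC, 20.4% in AMY and 20.9% in Nac, and of the 6 members 2 each in VTA and PFC and 1 each in AMY and Nac. All of these member calls were lost with the number series as a term in the model, so the values describe libraries that differ in both. Napepld was lower with chronic saline in each region. In Nac it had a lowest, median and highest level of 4.86, 6.49 and 9.41 CPM with chronic saline, against 5.63, 7.89 and 11.3 CPM with acute saline (log2 difference -0.33, SE 0.07, edgeR adjusted p = 4.49e-04). In VTA it had 12, 18.1 and 22.5 CPM, against 17.1, 20.2 and 24.8 CPM (-0.19, SE 0.03, edgeR adjusted p = 2.76e-06), and 27 of 29 chronic libraries lay below the acute median. In PFC the medians were 21.6 CPM with chronic saline and 23.7 CPM with acute saline (-0.11, SE 0.04, edgeR adjusted p = 0.0415). In AMY they were 19.1 and 19.9 CPM, and the difference of -0.12 (SE 0.05) did not pass (edgeR adjusted p = 0.0626).

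Faah moved one way in AMY and the other way in VTA. In AMY it fell to 50.0, 62.5 and 75.8 CPM (lowest, median and highest) with chronic saline, against 54.9, 70.5 and 108 CPM with acute saline (-0.20, SE 0.06, edgeR adjusted p = 0.0128). In VTA it rose to 44.0, 48.5 and 57.2 CPM with chronic saline, against 37.8, 46.5 and 56.5 CPM with acute saline (0.09, SE 0.03, edgeR adjusted p = 0.0177). The difference between the effects was itself tested, as a comparison added after seeing the data: -0.28 for AMY over VTA (SE 0.09, limma voom adjusted p = 0.0243) and -0.27 for Nac over VTA (SE 0.10, limma voom adjusted p = 0.0252). The share of all genes passing these tests is not given here, so they are not read as particular to Faah. Daglb rose in PFC, with 34.6, 46.8 and 57.3 CPM, against 36.7, 43.4 and 49.4 CPM (0.09, SE 0.03, edgeR adjusted p = 0.0321). Its chronic saline libraries of series 500 and 1200 had medians of 49.0 and 44.1 CPM, against 42.4 and 45.3 CPM in acute saline libraries of series 1000 and 1100.

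With the series as a term, all of these differences but that of Daglb kept their sign, and their errors were larger. Napepld then differed by -0.20 in Nac (SE 0.14), -0.11 in VTA (SE 0.07) and -0.07 in PFC (SE 0.08), Faah by -0.30 in AMY (SE 0.13) and 0.11 in VTA (SE 0.06), and Daglb by -0.02 in PFC (SE 0.06), with edgeR adjusted p between 0.207 and 0.951. Chronic and acute saline share no series, so the fit with the term links them only through chronic cocaine libraries, those of series 1000 included. The schedules were also compared within series 1000, as an alternative added after seeing the data that is not independent of that fit. It held 20 to 22 chronic cocaine and 14 to 16 acute cocaine libraries of each region. This called 24.9% of all genes in VTA, 11.8% in AMY, 11.6% in PFC and 4.31% in Nac, and 1 of 6 members in each. Napepld was again lower in VTA, with a lowest, median and highest level of 15.6, 18.8 and 20.9 CPM with chronic cocaine, against 18.2, 19.9 and 23.9 CPM with acute cocaine (-0.14, SE 0.04, edgeR adjusted p = 0.00806). The other calls were of members not called under saline. Mgll was higher in AMY, with 84.7, 108 and 148 CPM, against 79.3, 94.0 and 114 CPM (0.18, SE 0.06, edgeR adjusted p = 0.0374). Dagla was higher in Nac, with 69.7, 94.5 and 147 CPM, against 59.7, 82.6 and 87.9 CPM (0.26, SE 0.07, edgeR adjusted p = 0.0315), and lower in PFC, with 107, 116 and 162 CPM, against 116, 136 and 177 CPM (-0.20, SE 0.06, edgeR adjusted p = 0.0193). The ranges overlapped in each case. The Nac library of 147 CPM was among those that stood apart and had the lowest total count of the series. This comparison was not repeated without it. In PFC, libraries high in striatal markers lay on both sides, the highest of them with chronic cocaine, and their part was not tested. Faah did not pass in AMY (-0.18, SE 0.08, edgeR adjusted p = 0.143) or VTA (0.04, SE 0.04, edgeR adjusted p = 0.454).

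Markers of other cells moved beside these calls. In VTA all 5 dopamine neuron, all 6 microglia, all 3 GABA neuron and 2 of 6 oligodendrocyte markers were higher with chronic saline, and 4 of 7 choroid plexus, 3 of 5 glutamatergic and 2 of 6 astrocyte markers lower, with calls in both directions among the cholecystokinin interneuron, striatal, medial amygdala and endothelial lists. The summed dopamine neuron markers ran from 2035 to 6893 CPM with chronic saline and from 843 to 4402 CPM with acute saline. In Nac 4 of 7 striatal markers were higher (sums of 2523 to 8286 CPM with chronic saline, 1842 to 5171 CPM with acute saline), as were 3 of 6 microglia, 2 of 5 endothelial and 1 of 7 choroid plexus markers, while 3 of 6 astrocyte and 1 of 6 cholecystokinin interneuron markers were lower and 1 GABA neuron marker went each way. In AMY 4 of 5 endothelial, 2 of 6 astrocyte and 2 of 6 microglia markers were higher, and 4 of 7 choroid plexus and 3 of 6 medial amygdala markers lower. In PFC 1 of 5 endothelial, 1 of 6 cholecystokinin interneuron and 1 of 6 choroid plexus markers were higher and 1 of 6 microglia markers lower, and 1 medial amygdala marker went each way. None of these markers was at 0, and their part in the member differences was not tested. In whole tissue, fewer cells of a type and less RNA per cell cannot be told apart.

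The rest of the pathway was read from a list of 29 genes for further receptors, receptor partners, 2-AG supply and breakdown, other routes to N-acylethanolamines, their breakdown, carriers and nuclear receptors. Of these, 25 were measured in AMY, Nac and PFC and 26 in VTA. Cnr2, the gene of the receptor CB2, stayed near the floor of the data, with medians of 0.222 to 0.302 CPM. No listed gene passed in any housing or acute cocaine comparison. With chronic cocaine in PFC, where 7.12% of all genes passed, 2 of 25 did so, both lower: Pla2g4e, whose product makes N-acyl phosphatidylethanolamines, the substrate of the Napepld enzyme, and Pparg, a nuclear receptor gene. Pla2g4e had a median of 9.99 CPM with chronic cocaine, against 12 CPM with chronic saline (-0.37, SE 0.10, edgeR adjusted p = 0.016), and Pparg had 2.43 CPM, against 3.24 CPM (-0.34, SE 0.09, edgeR adjusted p = 0.0189). Both calls were lost with the number series as a term, at 0.00 for Pla2g4e (SE 0.15) and -0.25 for Pparg (SE 0.13; edgeR adjusted p = 1 for both), and without the libraries high in striatal markers (edgeR adjusted p = 0.104 for Pla2g4e and 0.196 for Pparg). For sex in AMY 1 of 25 passed, with 2.19% of all genes called: the carrier gene Fabp7, with a median of 32.6 CPM in females, against 35.7 CPM in males (-0.20, SE 0.05, edgeR adjusted p = 0.022).

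The schedule again gave the most calls: 7 genes higher and 5 lower in VTA, 3 higher and 4 lower in PFC, 3 higher and 2 lower in AMY, and 1 higher and 4 lower in Nac. Set against the 43.6%, 23.3%, 20.4% and 20.9% of all genes called in the same order of regions, these counts of 12 of 26, 7 of 25, 5 of 25 and 5 of 25 are near the background. Ptgs2, which encodes cyclooxygenase-2, an enzyme that also oxidises endocannabinoids, was lower with chronic saline in all 4 regions. In PFC it had a lowest, median and highest level of 9.99, 16.6 and 22.7 CPM with chronic saline, against 19.3, 27.5 and 38.2 CPM with acute saline (-0.72, SE 0.07, edgeR adjusted p = 1.39e-14), so that the highest chronic library was below the acute median. Abhd6, a second 2-AG hydrolase, was lower in AMY, Nac and PFC by log2 differences of -0.16, -0.21 and -0.16, while Pla2g4e was higher in the same 3 regions by 0.53, 0.51 and 0.68 (the highest edgeR adjusted p of the 6 was 2.16e-04). In VTA, Trpv1, an ion channel that anandamide can open, had a median of 0.271 CPM with chronic saline, against 1.52 CPM with acute saline (-2.45, SE 0.23, edgeR adjusted p = 2.86e-16). As for the members, these libraries differ in number series too. With the series as a term, 4 of these calls were kept: Ptgs2 in PFC (-0.86, SE 0.14, edgeR adjusted p = 1.52e-05), Trpv1 in VTA (-2.90, SE 0.51, edgeR adjusted p = 4.16e-05), Gde1, a phosphodiesterase gene of another route to anandamide, in VTA (0.27, SE 0.08, edgeR adjusted p = 0.0126) and the carrier gene Fabp5 in AMY (0.30, SE 0.08, edgeR adjusted p = 0.0462). The genes called with the term in each region are counted in the closing section on processing. The fit with the term links chronic and acute saline only through chronic cocaine libraries, those of series 1000 included. The comparison within that series is thus not independent of the 4 calls kept. Among cocaine libraries of series 1000, Ptgs2 in PFC (-0.66), Trpv1 in VTA (-1.96) and Gde1 in VTA (0.16) passed. Other listed genes passed too: Cnr2, Gpr55, Abhd12, Naaa, Fabp3, Fabp5 and Fabp7 in VTA, Plcb4 and Abhd4 in PFC, and Grm5 and Inpp5d in AMY. Of all genes, 24.9% passed this comparison in VTA, 11.6% in PFC and 11.8% in AMY. Fabp5 in AMY did not (0.13, edgeR adjusted p = 0.133). There Ptgs2 also passed in AMY (-0.73) but not in Nac (0.06) or VTA (-0.11). Neither Abhd6 nor Pla2g4e passed there in AMY, Nac or PFC.

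Within a region, members varied with several marker lists, given as a description after group means were removed and with no test. In PFC Faah ran against the mean of the striatal markers (Pearson r = -0.75, Spearman rho = -0.71, n = 112; r = -0.74 without the 2 libraries farthest in the markers), and about as closely against the GABA neuron (r = -0.73), oligodendrocyte (-0.69) and astrocyte (-0.67) lists. In Nac it ran with the cholecystokinin interneuron list (r = 0.80, rho = 0.80, n = 112; r = 0.82 without the 2 farthest). It also ran with the glutamatergic list there (r = 0.73) and against the striatal list (r = -0.59). Cnr1 ran with the glutamatergic list in AMY (r = 0.66, rho = 0.68, n = 115), Nac (r = 0.64, rho = 0.59, n = 112) and PFC (r = 0.59, rho = 0.53, n = 112) but not in VTA (r = 0.01, rho = -0.03, n = 115). Other lists came close: the cholecystokinin interneuron list in AMY (r = 0.60) and, with the other sign, the striatal list in PFC (r = -0.63). Mgll ran with the microglia list in AMY (r = 0.67, rho = 0.61, n = 115) and PFC (r = 0.69, rho = 0.64, n = 112), less in VTA (r = 0.46, rho = 0.55, n = 115) and hardly in Nac (r = 0.08, rho = 0.05, n = 112). In AMY it ran about as closely with the endothelial list (r = 0.65). In Nac it ran with the striatal list (r = 0.64) and against the medial amygdala list (r = -0.71). The points share the library, its depth and its dissection. Among the members, the closest pairs were Cnr1 with Napepld in PFC (r = 0.69, rho = 0.67), Cnr1 with Daglb in AMY (r = 0.68, rho = 0.65) and Faah with Napepld in Nac (r = 0.63, rho = 0.64). Cnr1 and Napepld had the opposite sign in AMY (r = -0.46, rho = -0.47).

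The genes most like each member over all 454 libraries, by the correlation of log2 levels after the 64 group means were removed and among 12834 genes, were Atrnl1 for Cnr1 (r = 0.72), Fam19a1 for Faah (0.80), Rasl10b for Mgll (0.70), Mef2d for Dagla (0.83), Pip4k2c for Daglb (0.70) and Car10 for Napepld (0.62). The likeness of Mef2d to Dagla was close in every region, from 0.70 in AMY to 0.89 in Nac. That of Slc6a7 and Sidt1 to Faah (0.78 and 0.77 over all libraries) was 0.92 in Nac for both and had the other sign in VTA, at -0.20 and -0.22. For Mgll, Rasl10b reached 0.89 in AMY and 0.17 in VTA.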

How the data were processed

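The values are raw read counts for each gene in 454 libraries, in the form the authors deposited. Per the labels' protocols, polyadenylated RNA went into stranded TruSeq libraries and was read as 50-base single ends. The tools STAR, featureCounts and limma and the build GRCm38/mm10 are named per the submitters' processing notes; the sources used here give no version, annotation or strand setting. Symbols were matched by Ensembl identifier for 42462 of 43346 genes, and gene positions and exon lengths come from GENCODE M21.

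Groups came from the labels. Separate fits per region used edgeR 4.0.16 in R 4.3.3 (filterByExpr, TMM factors, robust glmQLFit, glmQLFTest) over 16 group means, and regions were compared in 1 fit over 64. Tests are two-sided, adjusted by Benjamini-Hochberg over all genes tested, with a threshold of 0.05. Genes tested numbered 17003 in PFC, 17391 in AMY, 17144 in VTA and 17266 in Nac. CPM are TMM-scaled over all libraries. A library stood apart with a robust z over 5 on any of 4 principal components of the 3000 most variable genes, a robust z over 8 on choroid plexus markers, or opposite-sex transcripts of at least 5% of the other sex's median. The most alike of 1399 library pairs within groups had a chi-square of 2.69 per degree of freedom, so none were merged.

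Alternatives were limma voom (limma 3.58.1), DESeq2 1.42.0, RLE factors, no filter on low counts, number series as a term or within series (for the schedule, cocaine libraries of series 1000, added after seeing the data), leaving out libraries, and a block by title number. The edgeR, limma and DESeq2 fits were tested on simulated counts. Title numbers did not pair libraries: the labels do not say what they mark. Named genes are the members, the listed pathway genes and the 3 genes most like each member. The members, lists and tests were chosen with earlier results of these data known.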

Additional observations from a re-analysis of the deposited data

Results flagged for a closer look

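Among 384 sets of a member and a group, 26 held 1 library whose gap to the nearest other was large for the group's range by Dixon's criterion, 15 of them on the high side. Chance alone flags about 1 in 20 sets. The values below are single libraries with the next value of the group.

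For Cnr1, 4 libraries were high: 283 CPM next to 159 in AMY (group-housed females, acute saline), 175 next to 105 in Nac (isolated females, acute cocaine), 140.0 next to 99.6 in Nac (group-housed females, chronic saline) and 104 next to 75.8 in VTA (group-housed females, acute saline). For Faah, 3 AMY libraries were high, at 83.8 CPM next to 71.0 (group-housed females, acute cocaine), 108 next to 74.2 (isolated females, acute saline) and 108 next to 77.8 (group-housed males, acute saline). Low Faah values were 19.1 CPM next to 25.1 in Nac (group-housed females, acute saline), 80.2 next to 98.6 in PFC (isolated females, acute saline) and 42.3 next to 48.6 in VTA (group-housed males, acute cocaine).

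For Mgll, 109 CPM stood next to 89.2 in AMY (group-housed females, acute cocaine) and 79.4 next to 59.5 in VTA (group-housed females, acute cocaine), with low values of 133 next to 219.8 in Nac (group-housed females, chronic cocaine) and 48.6 next to 53.0 in VTA (isolated females, chronic cocaine). The Nac library also carried opposite-sex transcripts at 8.47% of the other sex's median and was among those left out as standing apart.

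Dagla was high at 113 CPM next to 83.0 in AMY (group-housed females, acute saline), in the library that was also high in Cnr1, and at 82.3 next to 63.8 (isolated males, acute cocaine) and 70.5 next to 60.7 (isolated males, acute saline) in VTA. It was low at 36.1 CPM next to 64.7 in AMY (group-housed males, acute cocaine), 21.4 next to 76.8 in Nac (isolated females, chronic saline), 83.1 next to 122 in PFC (group-housed females, chronic saline) and 113 next to 137 in PFC (group-housed males, acute saline). Daglb was high at 34.6 CPM next to 29.4 in AMY (isolated females, acute saline), 38.5 next to 31.8 in Nac (group-housed males, acute cocaine) and 57.3 next to 48.7 in PFC (isolated males, chronic saline). Napepld was low in VTA at 16.4 CPM next to 18.3 (isolated males, chronic cocaine) and 12 next to 16.6 (isolated males, chronic saline).

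Of 72 differences of a member's effect between 2 regions, tested with limma voom as an addition after seeing the data, 4 passed. The share of all genes passing these tests is not given here, so the calls are not set against a background and are no result about the members. The chronic cocaine difference of Daglb was 0.20 higher in AMY than in PFC (adjusted p = 0.0205) and 0.19 higher in Nac than in PFC (adjusted p = 0.0228). The schedule difference of Faah under saline was -0.28 in AMY relative to VTA (adjusted p = 0.0243) and -0.27 in Nac relative to VTA (adjusted p = 0.0252). Both comparisons are those in which the groups also differ in number series.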

How the results depend on the processing

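Of 2208 alternative member values within regions, 2179 stayed on their side of the threshold, 63 of them with another sign but no call under either setting. A further 23 kept the direction but no longer passed, 3 newly passed and 3 reversed. No alternative, limma voom and DESeq2 included, called a member in a comparison where edgeR called 0. All 144 alternatives of the regional differences kept direction and call. With the number series as a term, 0 members were called for chronic cocaine in PFC and for the schedule in each region, and genes called numbered 1 for chronic cocaine in PFC (7.12% of genes without the term), and for the schedule 1677 in VTA (7470 without the term), 84 in PFC (3954), 179 in AMY (3540) and 20 in Nac (3608). The first 2 of the reversals arose here: Faah for chronic cocaine in PFC at 0.00 (adjusted p = 1) and Daglb for the schedule in PFC at -0.02 (adjusted p = 0.909). Of the listed pathway genes called for the schedule, the series term kept 2 of 12 in VTA, 1 of 7 in PFC, 1 of 5 in AMY and 0 of 5 in Nac. Among cocaine libraries of series 1000 alone, genes called for the schedule numbered 4200 in VTA, 1938 in PFC, 2019 in AMY and 735 in Nac, with 1 member in each region, and Daglb in PFC reversed, at -0.07 (adjusted p = 0.321). Within series 1200 alone, 0 members and 1 gene were called for chronic cocaine in PFC. In isolated males of PFC the series term left 0 members and 1 gene, against 2 members and 6.91% of genes. Without the libraries high in striatal markers, 0 members and 210 genes were called for chronic cocaine in PFC, and 0 members and 3 genes in isolated males. Without a filter on low counts, which tests more genes, the members called were 0 for sex in AMY, 1 for chronic cocaine in PFC (639 genes) and 0 for the schedule in PFC. For sex in AMY, 0 members were called under limma voom and without the libraries that stood apart (222 genes, against 381). Leaving out each isolated male of the acute cocaine group in turn gave 0 to 1 members there, with the call lost without replicates 2, 3 and 4. The cause of these changes was not tested.

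Title numbers recur across regions. Same-numbered libraries deviated together only slightly, with a median r of 0.015 to 0.049 per pair of regions (lowest -0.269). For other numbers the median r was -0.001 to 0. A library was most like that of its own number for 1 of 101 numbers in AMY and Nac, and for 7 of 99 in Nac and PFC. With the number as a replicate block in limma voom, 6 members differed between AMY and Nac and 5 between AMY and VTA, as without it, and no regional call changed. The regional fit without a low-count filter and DESeq2 for the tests over combinations were not run. Cnr2, Trpv1, Gdpd3 and Ptpn22 had medians under 1 CPM in each region, and their values rest on few reads.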
